A study of Homo sapiens with 18 samples.

Results

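YAP1, WWTR1, TEAD1, CCN1, CCN2, ANKRD1, AMOTL1, AMOTL2 and LATS2, a set of 9 genes that encode components and transcriptional targets of the YAP and TEAD pathway, were followed in A375 cells exposed to IMD-0354. The 9 genes were chosen by symbol from the 60504 genes of the deposited table. Each symbol matched 1 row, and all 9 were among the 14936 genes that reached at least 1 TPM in at least 3 libraries and were tested. A375 is an established human melanoma line with an activating BRAF mutation, and IMD-0354 is known as an inhibitor of the IKKβ kinase of the NF-κB pathway. Cells were untreated for 24 h, received 0.32, 0.63 or 1.25 µM for 24 h, were untreated for 48 h, or received 0.63 µM for 48 h, with 3 libraries in each of these 6 groups. No vehicle is named for the untreated cells, and all groups come from this 1 line. The labels do not state whether the 3 libraries of a group were separate cultures, and p-values here reflect the spread of these libraries alone, which may be technical.

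YAP and TAZ, the latter encoded by WWTR1, are coactivators without a DNA-binding domain of their own, and they reach DNA through the TEAD family of transcription factors. In the Hippo pathway the kinases STK3 and STK4 activate LATS1 and LATS2, which phosphorylate YAP and TAZ and keep them out of the nucleus, and angiomotin family proteins bind and retain them as well. In melanoma, YAP and TAZ activity is known from invasive, dedifferentiated cell states and from tolerance of BRAF inhibition. Because much of this control acts on protein location and stability, the transcript level of a coactivator is not a measure of its activity.

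All values are TPM (a transcript level divided by transcript length and scaled to the same total in each library), and changes are differences of group means of log2(TPM + 1), which understate the change of low genes. Each SE and adjusted p is from limma fitted to all genes and all 18 libraries, and a gene was called at a Benjamini-Hochberg adjusted p under 0.05. TPM holds no read counts, so the depth behind each value is unknown. The melanocyte lineage factors MITF (2.87 to 16.8 TPM) and SOX10 (8.29 to 34.72 TPM) were present in every library, while the pigment genes TYR (0 TPM), PMEL (at most 0.7 TPM) and MLANA (at most 2.37 TPM) were absent or low. Of the 7 fibroblast markers COL3A1 was listed at 0 and the others except PDGFRB (0 to 12.8 TPM) stayed at or below 0.52 TPM. Of the 5 keratinocyte markers KRT1 was at 0, and KRT10 (27.65 to 102.57 TPM) carried the sum. Untreated 24 h replicates 2 and 3 had the lowest mean correlation with their group (Pearson's r across genes of 0.907 and 0.920, against 0.929 to 0.953 in the others), and 4 abundant chromosome 21 transcripts took 14.4% of TPM in replicate 2 against 20.2% and 19.7% in the other untreated libraries of 24 h. The median change over all genes was 0.00, 0.00 and -0.01 for the 3 doses at 24 h and was -0.15 at 48 h, so the values at 48 h are to be read against that shift.

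CCN1 rose at 0.63 µM for 24 h and ANKRD1 rose at 0.63 µM for 48 h, both being genes that TEAD factors are known to bind. WWTR1 and TEAD1 fell at 1.25 µM for 24 h, and WWTR1 also fell at 0.63 µM for 48 h. YAP1 and LATS2 were not called in any comparison, nor were CCN2, AMOTL1 and AMOTL2. At 0.32 µM limma called none of the 9 members, and none had an unadjusted p under 0.05, where 0.0268% of all genes were called and 6.11% had such a p. With 0.63 µM for 24 h it called 1 of 9, higher, where 2.18% of all genes were called, 1.36% higher and 0.824% lower. At 1.25 µM it called 2 of 9, both lower, where 11.3% of all genes were called and 6.36% were lower. After 48 h of 0.63 µM it called 1 higher and 1 lower, where 7.63% of all genes were called, 1.95% higher and 5.68% lower. The median change of the 9 members was -0.03, -0.16 and -0.27 in the last 3 of these comparisons, beside 0.00, -0.01 and -0.15 over all genes. Calls among the members went in both directions.

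**Figure D1:**
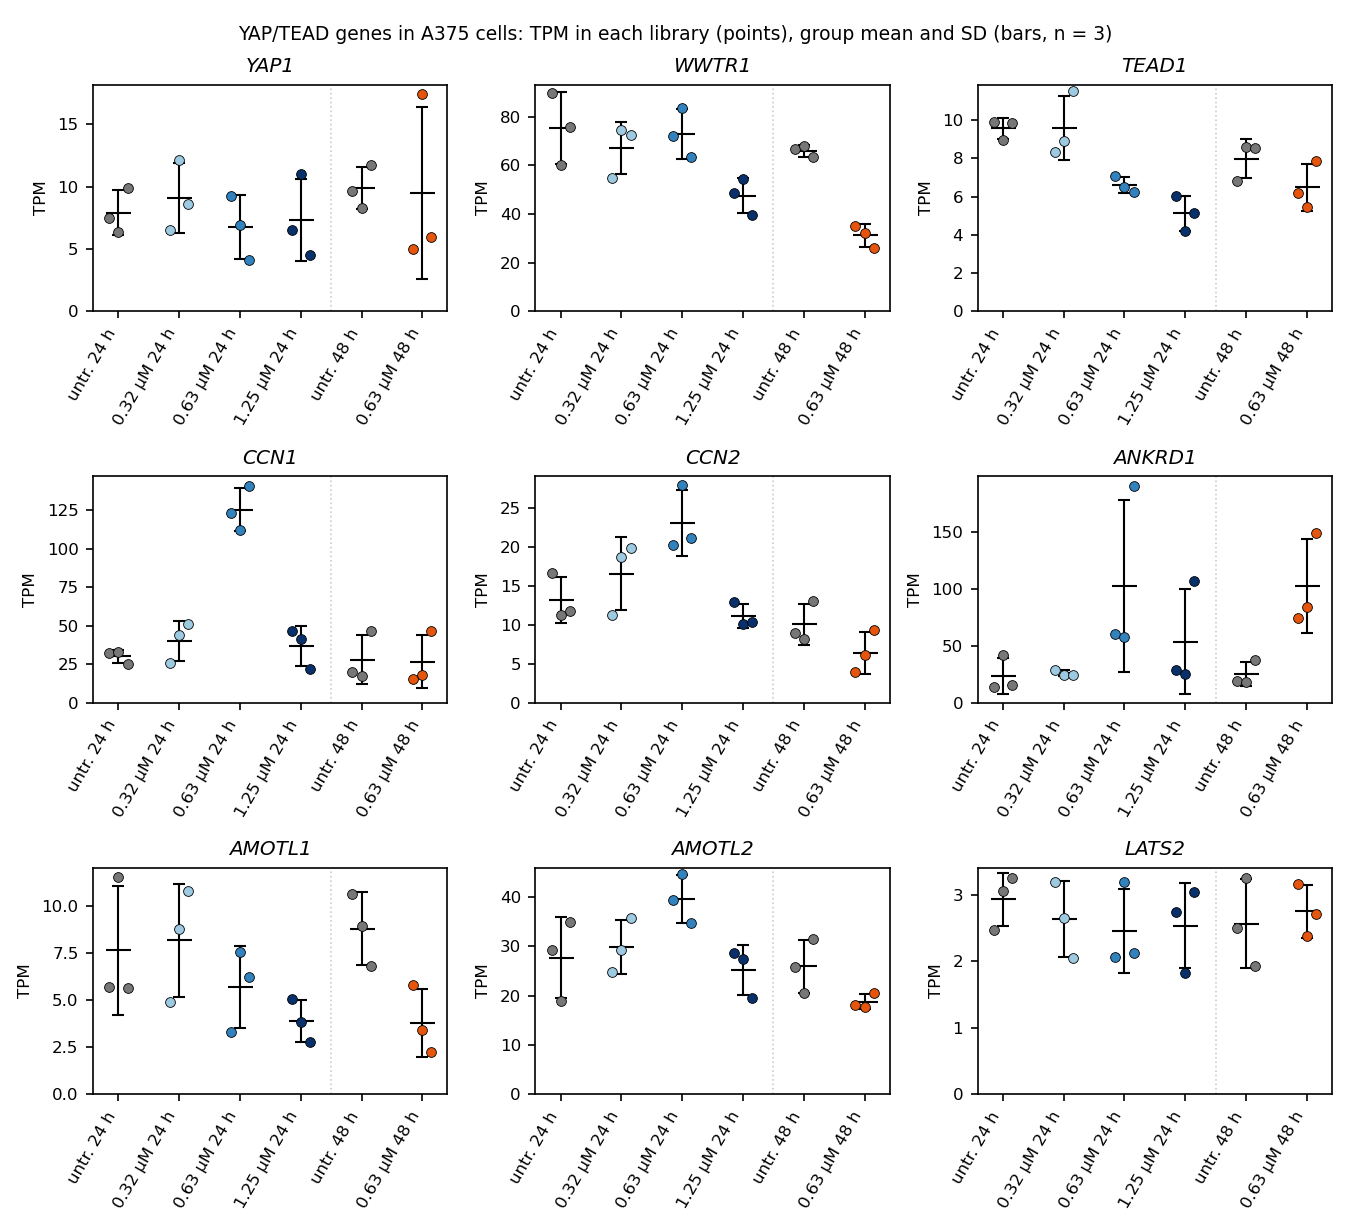
TPM of each of the 9 genes (vertical axes) in the 6 groups (horizontal axes), with a point for each library and black bars for the group mean and SD (n = 3). CCN1 stands apart at 0.63 µM for 24 h (112.32 to 140.5 TPM), WWTR1 is lowest at 0.63 µM for 48 h (26.13 to 35.25 TPM), and LATS2 stays between 1.83 and 3.26 TPM throughout.

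WWTR1 (ENSG00000018408, GRCh38 chr3:149517235-149736714, minus strand) encodes the coactivator TAZ. Untreated cells at 24 h held 89.58, 60.05 and 75.87 TPM, and cells at 0.32 µM held 54.85, 74.27 and 72.47 TPM. WWTR1 at 0.63 µM for 24 h read 72.1, 83.62 and 63.23 TPM. These 3 groups overlapped one another. At 1.25 µM the libraries read 48.63, 54.34 and 39.72 TPM, all below every untreated library. Untreated cells at 48 h held 66.47, 68.04 and 63.35 TPM, and after 48 h of 0.63 µM the libraries read 35.25, 32.31 and 26.13 TPM. These last 3 were the lowest WWTR1 values of the series. In order of group means, 0.63 µM for 48 h lay below 1.25 µM and 1.25 µM below untreated 48 h without overlap, while the 4 groups from untreated 48 h upward overlapped their neighbours.

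The WWTR1 level after 48 h of 0.63 µM was 47.4% of untreated (31.2 ± 4.65 against 66.0 ± 2.39 TPM, SD, n = 3). The log2 change was -1.06 (SE 0.19, limma adjusted p = 0.0024). This call was kept in all 15 alternatives run, with changes from -1.16 to -0.86. At the same dose for 24 h the change was -0.03 (95% interval -0.43 to 0.37). The difference between the effects at 48 and 24 h was -1.03 (SE 0.27), with a limma adjusted p of 0.139, so a difference between the times was not called. The summed melanocyte and melanoma markers, 7 genes of which TYR was at 0, also differed at 48 h, with 15.96 to 19.68 TPM in treated and 31.51 to 35.42 TPM in untreated libraries. The part of that difference in the WWTR1 result was not tested.

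At 1.25 µM for 24 h WWTR1 fell to 63.3% of untreated, a log2 change of -0.64 (SE 0.19, limma adjusted p = 0.0379). The call was lost when untreated replicate 1 (adjusted p = 0.138) or 3 (0.0753), or 1.25 µM replicate 1 (0.0727) or 3 (0.148), was left out, and the range over 16 alternatives was 0.0167 to 0.17. It was also lost with only the compared groups (0.17), with quantile normalization (0.0575) and without untreated replicates 2 and 3 together (0.057). The summed keratinocyte markers were 72.69 to 102.57 TPM at 1.25 µM and 39.24 to 45.12 TPM in untreated cells, nearly all of it KRT10, and their part in the changes at 1.25 µM was not tested. Over the 4 groups of 24 h the slope was -0.49 per µM (SE 0.15, limma adjusted p = 0.0323), also lost without any 1 of those 4 libraries and with only the compared groups (0.0705), in a range of 0.0122 to 0.146 over 22 alternatives. For this trend 2 of 9 members were called, both lower, where 14.7% of all genes were called and 7.99% were lower.

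TEAD1 (ENSG00000187079, GRCh38 chr11:12674591-12944483, plus strand) encodes a DNA-binding partner of YAP and TAZ. Untreated cells at 24 h held 9.9, 8.95 and 9.87 TPM, and cells at 0.32 µM held 8.36, 8.92 and 11.5 TPM. At 0.63 µM the libraries read 7.07, 6.5 and 6.23 TPM, and at 1.25 µM they read 6.03, 4.22 and 5.13 TPM. TEAD1 was thus lower in every library of the upper doses than in every library of the other 24 h groups, with no overlap between 0.63 and 1.25 µM either. Untreated cells at 48 h held 6.82, 8.61 and 8.53 TPM, and cells at 0.63 µM for 48 h held 6.18, 5.45 and 7.85 TPM. The groups of 48 h overlapped.

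The fall of TEAD1 at 1.25 µM left 53.6% of the untreated level, with a log2 change of -0.80 (SE 0.20, limma adjusted p = 0.0191). At 0.63 µM for 24 h the change was -0.48 (95% interval -0.91 to -0.04) and was not called (limma adjusted p = 0.231), and at 48 h it was -0.27 (95% interval -0.70 to 0.16). The slope over dose at 24 h was -0.70 per µM (SE 0.16, limma adjusted p = 0.00699), and it was called in 21 of 22 alternatives. The exception left out both untreated replicates 2 and 3, with an adjusted p of 0.0519 in a range of 0.0046 to 0.0519. The call at 1.25 µM was lost without untreated replicate 1 (adjusted p = 0.053), 1.25 µM replicate 2 (0.0759) or 1.25 µM replicate 3 (0.0525), with a range of 0.013 to 0.15 over 16 alternatives. It was also lost with only the compared groups (0.126) and without untreated replicates 2 and 3 together (0.15).

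YAP1 (ENSG00000137693, GRCh38 chr11:102110461-102233423, plus strand) encodes the other coactivator. Its untreated libraries read 7.5, 6.37 and 9.87 TPM at 24 h and 9.62, 8.33 and 11.73 TPM at 48 h. Treated libraries at 24 h ranged from 4.13 to 12.11 TPM over the 3 doses, and at 48 h they read 5.01, 17.45 and 6 TPM. All groups overlapped their neighbours in level, and the libraries of 0.63 µM for 48 h spanned the widest range with replicate 2 above the rest. The changes against untreated cells lay between -0.24 and 0.16 on the log2 scale. Their 95% intervals reached from -1.08 to 1.01, and so allow changes of that size in either direction.

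Of the other coactivator partners in a list of 10 genes, TEAD2, VGLL1, VGLL2 and VGLL3 were below the filter and TEAD3, TEAD4 and VGLL4 were tested. WWTR1 and TEAD1 supplied the only calls of this list, 2 of 6 lower at 1.25 µM and 1 of 6 lower at 48 h. Of all genes 6.36% and 5.68% were called lower there, and both genes are members already counted above. The libraries and settings named for those genes change the count at 1.25 µM too. The count at 48 h is WWTR1 alone, whose call was kept in all 15 alternatives.

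Short windows before the start sites show which members carry the letters that TEAD factors are known to bind. RefSeq promoter windows (GRCh38.p14, 250 bases before to 50 after a start) were given for 7 of the 9 members, in 9 windows, and none was given for CCN1 or TEAD1. The core GGAATG, searched on both strands so that CATTCC counts too, matched 3 times in CCN2, 2 times in ANKRD1 and 1 time each in YAP1, LATS2 and the second start of AMOTL2. The windows of WWTR1 and AMOTL1 and the first of AMOTL2 held no match. Among 35116 promoter windows of that length 14.0% had at least 1 match, 1.37% at least 2 and 0.128% at least 3. The letters TGANTCA, a loose form of the AP-1 site that allows any base at N, matched 1 time, where 7.71% of all windows held a match. That match, in ANKRD1 and apart from its GGAATG matches, reads tgattca. It has a T where the AP-1 consensus has C or G, so it is not a consensus AP-1 site. Neither the CRE letters TGACGTCA (1.85% of all windows) nor a CArG box, the SRF element (1.29%), matched in any of the 9. A match of letters is a description and no evidence of binding. The 250 bases before the start are printed for the targets with matches there, each 5′ to 3′ on the strand of the gene with GGAATG or CATTCC in capitals, at chr6:131951373-131951622 for CCN2, chr10:90921088-90921337 for ANKRD1 and chr3:134374448-134374697 for the second start of AMOTL2, all on the minus strand.
CCN2: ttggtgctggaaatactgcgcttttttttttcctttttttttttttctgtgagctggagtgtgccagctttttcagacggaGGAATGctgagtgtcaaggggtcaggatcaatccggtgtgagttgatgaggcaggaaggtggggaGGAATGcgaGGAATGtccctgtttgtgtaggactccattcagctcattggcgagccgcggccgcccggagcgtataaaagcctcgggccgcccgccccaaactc
ANKRD1: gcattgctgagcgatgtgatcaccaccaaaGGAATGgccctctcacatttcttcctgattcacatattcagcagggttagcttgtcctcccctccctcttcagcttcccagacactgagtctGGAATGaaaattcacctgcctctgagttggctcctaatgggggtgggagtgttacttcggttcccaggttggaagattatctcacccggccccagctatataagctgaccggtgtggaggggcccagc
AMOTL2: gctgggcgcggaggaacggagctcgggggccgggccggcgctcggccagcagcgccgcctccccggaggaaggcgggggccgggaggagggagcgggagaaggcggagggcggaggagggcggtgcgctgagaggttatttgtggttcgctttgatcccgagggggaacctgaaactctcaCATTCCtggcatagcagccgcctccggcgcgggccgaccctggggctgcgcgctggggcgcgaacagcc

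**Figure D2:**
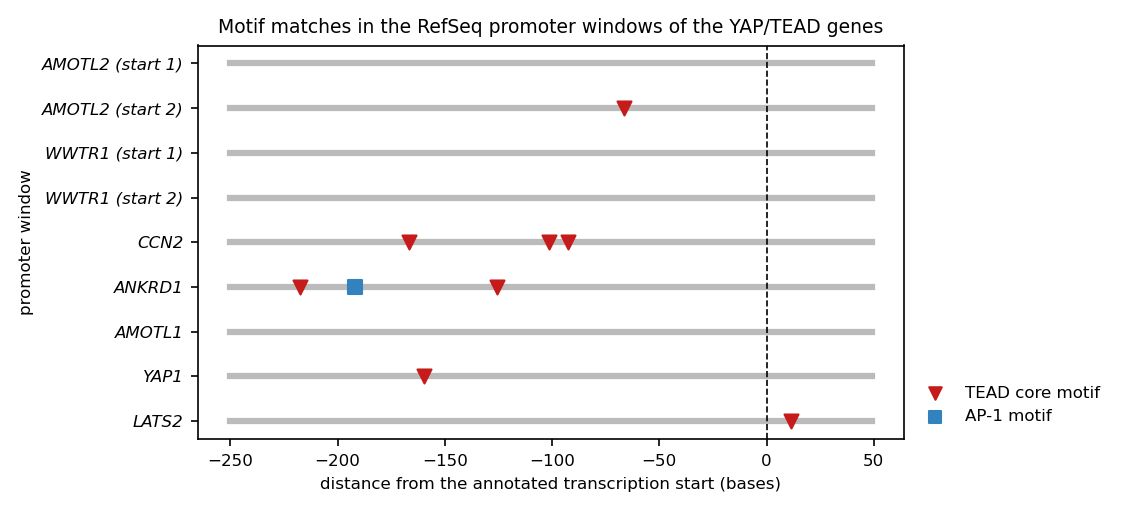
Matches of GGAATG on either strand and of the loose AP-1 letters TGANTCA (marked as AP-1 motif) in the 9 RefSeq promoter windows of 7 members. They are placed by distance from the start site in bases (horizontal axis), with a row for each window. CCN2 has 3 TEAD-type matches, ANKRD1 has 2 and the only TGANTCA match, which is not a consensus AP-1 site, and WWTR1 and AMOTL1 have none.

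CCN1 (also CYR61, ENSG00000142871, GRCh38 chr1:85580761-85583962, plus strand) encodes a secreted matricellular protein that binds integrins and is a standard readout of YAP and TAZ. CCN1 in untreated cells at 24 h was 32.51, 32.85 and 25.55 TPM, and cells at 0.32 µM held 25.72, 44.21 and 51.01 TPM. At 0.63 µM the libraries read 123.15, 112.32 and 140.5 TPM, and at 1.25 µM they read 46.48, 41.6 and 21.97 TPM. The libraries of 0.63 µM for 24 h lay above all 15 others, and the doses on either side of it overlapped untreated cells. Untreated cells at 48 h held 19.95, 17.77 and 46.32 TPM, and cells at 0.63 µM for 48 h held 15.47, 18.05 and 46.61 TPM. The groups of 48 h overlapped over nearly their whole range, and in both replicate 3 was the high library.

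CCN1 at 0.63 µM for 24 h was 4.14 times the untreated level (125.3 ± 14.2 against 30.3 ± 4.12 TPM, SD, n = 3). The log2 change was 2.02 (SE 0.41, limma adjusted p = 0.0214). The step from 0.63 to 1.25 µM took it down by -1.81 (SE 0.41, limma adjusted p = 0.0372), the only one of the 9 members called in that step, where 1.51% of all genes were called and 1.04% were lower. From 0.32 to 0.63 µM the change was 1.66 (SE 0.41) and was not called (limma adjusted p = 0.0836). In that step limma called none of the members, 3 had an unadjusted p under 0.05, and of all genes 0.556% were called and 13.9% had such a p. The linear slope over dose, 0.27 per µM with a limma adjusted p of 0.632, did not capture a level that was high at the middle dose alone.

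The call of CCN1 at 0.63 µM was lost without 0.63 µM replicate 1 (adjusted p = 0.0571) or replicate 3 (0.107), or without untreated replicates 2 and 3 together (0.28), while the change stayed between 1.89 and 2.09 over 16 alternatives with adjusted p from 0.0152 to 0.28. The fall to 1.25 µM was called in 8 of 15 alternatives, with adjusted p from 0.027 to 0.166, and was lost without any 1 of the 0.63 µM libraries or without 1.25 µM replicate 2 or 3, and also with no filter (0.0669) and with quantile normalization (0.0516). At 48 h the change was -0.11 (95% interval -0.97 to 0.76). The effect at 48 h minus that at 24 h was -2.12 (SE 0.58), which limma did not call (adjusted p = 0.15). For this difference between times it called none of the 9 members, 4 had an unadjusted p under 0.05, and of all genes 0.0335% were called and 11.9% had such a p.

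CCN2 (also CTGF, ENSG00000118523, GRCh38 chr6:131948176-131951373, minus strand), a related matricellular protein, has the 3 TEAD-type matches printed above. Untreated cells at 24 h held 16.65, 11.24 and 11.85 TPM, and cells at 0.32 µM held 11.27, 18.76 and 19.84 TPM. At 0.63 µM the libraries read 20.29, 27.94 and 21.13 TPM, and at 1.25 µM they read 12.96, 10.13 and 10.41 TPM. The highest libraries of CCN2 were, as for CCN1, those of 0.63 µM for 24 h, and they did not overlap any other group. Untreated cells at 48 h held 9.03, 8.23 and 13.12 TPM, and cells at 0.63 µM for 48 h held 3.91, 6.11 and 9.32 TPM. The groups of 48 h overlapped.

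None of the CCN2 differences was called. The CCN2 change at 0.63 µM for 24 h was 0.77 (95% interval 0.16 to 1.38, limma adjusted p = 0.174). The step to 1.25 µM was -0.98 (SE 0.29, limma adjusted p = 0.101), and at 48 h the change was -0.62 (95% interval -1.23 to -0.01, limma adjusted p = 0.227). The effect at 48 h minus that at 24 h was -1.39 (SE 0.41, limma adjusted p = 0.182). In the CCN family CCN4 and CCN5 were below the filter, and CCN1 was the only one of 4 tested members called against untreated cells. CCN6 at 0.63 µM for 24 h, 2.88 against 1.01 TPM, changed by 0.86 (SE 0.46) without being called (limma adjusted p = 0.349).

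ANKRD1 (ENSG00000148677, GRCh38 chr10:90912096-90921276, minus strand) encodes an ankyrin repeat protein known from stretched and stressed muscle and as a YAP and TEAD target, and its window holds 2 GGAATG matches. Untreated cells at 24 h held 13.89, 42.21 and 15.92 TPM, and cells at 0.32 µM held 29.36, 24.79 and 24.31 TPM. ANKRD1 at 0.63 µM for 24 h read 60.69, 57.7 and 190.16 TPM, and at 1.25 µM they read 29.22, 25.45 and 106.69 TPM. Every library of 0.63 µM exceeded every untreated one, whereas 1.25 µM overlapped untreated cells, and replicate 3 was far above its group at both doses. Untreated cells at 48 h held 19.63, 18.62 and 37.89 TPM, and cells at 0.63 µM for 48 h held 74.31, 84.13 and 149.61 TPM. Treated and untreated libraries of 48 h did not overlap.

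The rise of ANKRD1 at 48 h was 4.05-fold (102.7 ± 40.9 against 25.4 ± 10.8 TPM, SD, n = 3), with a log2 change of 1.98 (SE 0.55, limma adjusted p = 0.0374). The mean at 0.63 µM for 24 h was 4.28 times the untreated mean (102.9 ± 75.6 against 24.0 ± 15.8 TPM, SD, n = 3) and was not called (limma adjusted p = 0.0709). At 1.25 µM the mean was 2.24 times the untreated mean, a log2 change of 0.99 (95% interval -0.17 to 2.16) that was not called. The effect of 0.63 µM at 48 h minus that at 24 h was -0.02 (SE 0.78). The call at 48 h was lost without untreated replicate 1 or 2 or without any 1 of the treated libraries, with adjusted p from 0.0539 to 0.165 in those fits and from 0.0118 to 0.165 over 15 alternatives. It was also lost with no filter on low values (0.0756).

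**Figure D3:**
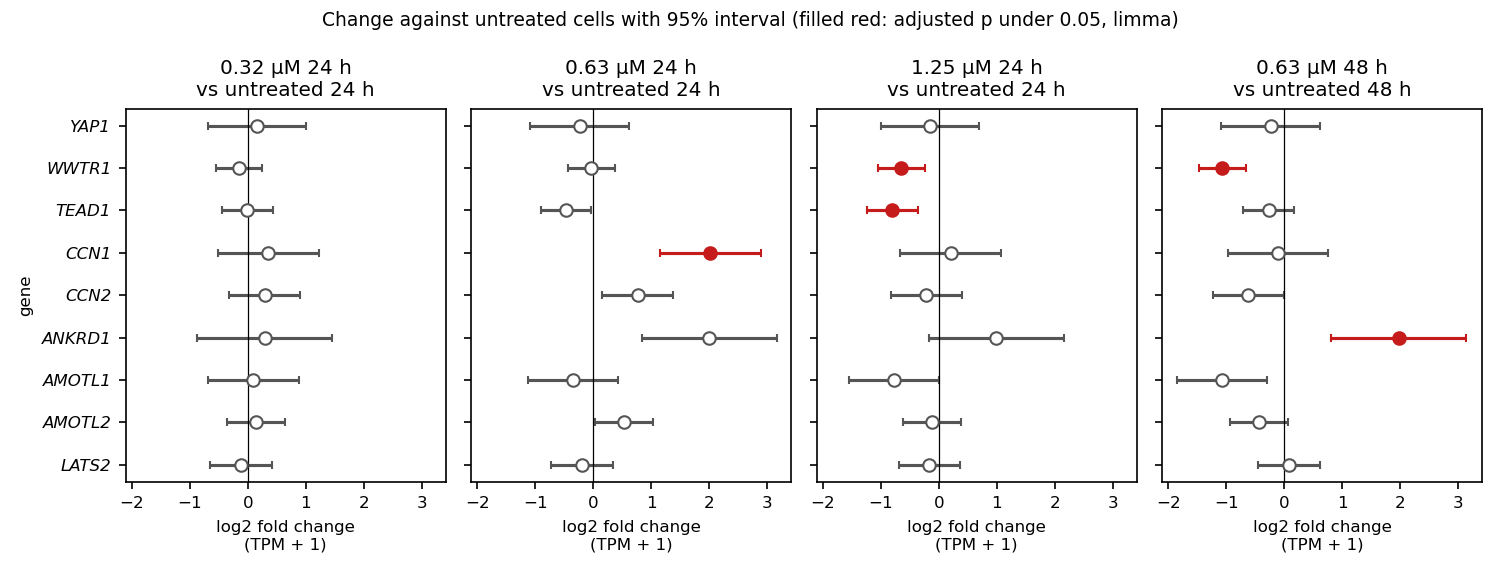
Log2 change of each of the 9 genes against untreated cells of the same time (horizontal axes) for the 4 treated groups, with 95% intervals as bars and filled red points where limma called the gene. The red points are CCN1 at 0.63 µM for 24 h, WWTR1 and TEAD1 at 1.25 µM, and ANKRD1 and WWTR1 at 0.63 µM for 48 h.

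AMOTL1 (ENSG00000166025, GRCh38 chr11:94706431-94876753, plus strand) and AMOTL2 (ENSG00000114019, GRCh38 chr3:134355874-134375479, minus strand) encode angiomotin-like proteins that bind YAP and TAZ, and AMOTL2 is itself a known target. AMOTL1 in untreated cells at 24 h read 5.68, 11.55 and 5.66 TPM, and at 1.25 µM it read 5.05, 3.85 and 2.8 TPM. At 48 h it read 10.64, 8.93 and 6.8 TPM in untreated cells and 5.78, 3.4 and 2.23 TPM at 0.63 µM. In both comparisons every treated library was below every untreated one. The changes were -0.78 (SE 0.37, limma adjusted p = 0.196) and -1.08 (SE 0.37, limma adjusted p = 0.0892), and neither was called. The remaining AMOTL1 libraries, at 0.32 and 0.63 µM for 24 h, ranged from 3.33 to 10.79 TPM and overlapped untreated cells.

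AMOTL2 was highest at 0.63 µM for 24 h, with 39.4, 44.55 and 34.76 TPM against 29.26, 18.81 and 34.95 TPM in untreated cells. Those groups overlapped by a narrow margin. At 1.25 µM the libraries read 28.7, 27.42 and 19.43 TPM, and at 48 h they read 25.85, 20.53 and 31.35 TPM untreated and 18.17, 17.6 and 20.62 TPM at 0.63 µM. The change at 0.63 µM for 24 h was 0.54 (95% interval 0.04 to 1.04, limma adjusted p = 0.243), and the step to 1.25 µM was -0.64 (SE 0.24, limma adjusted p = 0.19). AMOTL2 had the same order of the 24 h means at the upper doses as CCN1 and CCN2, without a call. That order was not particular to them, since 7 of the 9 members had a negative change in that step.

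LATS2 (ENSG00000150457, GRCh38 chr13:20973032-21061547, minus strand) encodes a kinase that phosphorylates YAP and TAZ and is also known as a target of theirs. Its level lay between 1.83 and 3.26 TPM in all 18 libraries, and every group overlapped its neighbours in level. The changes against untreated cells lay between -0.19 and 0.09, with 95% intervals from -0.72 to 0.62. At so low a level the added 1 TPM compresses these differences.

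By separation alone, CCN1, CCN2 and ANKRD1 lay wholly above untreated cells at 0.63 µM for 24 h, 3 of 9 members where 10% of all genes did so, and TEAD1 lay wholly below, where 9.26% did. At 1.25 µM WWTR1, TEAD1 and AMOTL1 lay wholly below, where 13.7% of all genes did. At 48 h WWTR1 and AMOTL1 lay wholly below, where 21.3% did, and ANKRD1 wholly above, where 9.23% did. From 0.32 to 0.63 µM CCN1, CCN2 and ANKRD1 lay wholly above and TEAD1 wholly below, where 11% and 9.1% of all genes did, and from 0.63 to 1.25 µM WWTR1, TEAD1, CCN1, CCN2 and AMOTL2 lay wholly below, where 11.1% did. The 24 h comparisons share their untreated libraries and are not independent of one another. In untreated cells limma called none of the members between 48 and 24 h, none had an unadjusted p under 0.05, and of all genes 0.0134% were called and 7.91% had such a p. TEAD1 alone was separated there, wholly lower at 48 h, where 7.65% of all genes were.

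A list of 22 known YAP and TAZ target genes, which includes 5 of the members, was examined as a signature of the pathway. ARHGEF17 was below the filter and 21 genes were tested. At 0.32 µM limma called none, with 1 at an unadjusted p under 0.05, and 16 of 21 changes were positive with a median of 0.16. Of all genes 0.0268% were called there and 6.11% had such a p. At 0.63 µM for 24 h 4 of 21 were called, all higher. The positive changes were again 16 of 21, with a median of 0.35 beside 0.00 over all genes. Both doses were compared with the same untreated libraries. At 1.25 µM 2 were higher and 2 lower (median -0.13), and at 0.63 µM for 48 h 3 were higher and 2 lower (median -0.42 beside -0.15 over all genes). Of all genes 2.18%, 11.3% and 7.63% were called in these 3 comparisons. The calls of CCN1 at 0.63 µM for 24 h and of ANKRD1 at 48 h are those of members already counted above. The list was chosen with earlier results of these data known, so its counts are no separate support. With only the compared groups the count was 1 higher at 0.63 µM for 24 h and 2 higher with none lower at 1.25 µM, and without a filter it was 2 at 0.63 µM for 24 h and 3 at 48 h. The count at 0.63 µM for 24 h fell to 2 without untreated replicate 1 or 0.63 µM replicate 2, to 1 without 0.63 µM replicate 1 and to 0 without 0.63 µM replicate 3. The count at 48 h fell to 3 without untreated replicate 1 or 2 or without treated replicate 1 or 3.

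IGFBP3, which binds insulin-like growth factors and is also a p53 target, rose by 1.80 (SE 0.42) at 0.63 µM for 24 h, by 2.68 at 1.25 µM and by 3.47 at 48 h, where its mean was 24.1 TPM against 1.24 TPM in untreated cells. GADD45A, a stress and growth arrest gene, rose in the same comparisons, to 136.6 and 318.8 TPM at 24 h against 54.8 TPM untreated and to 203.2 against 38.9 TPM at 48 h. The means of both were higher at 1.25 than at 0.63 µM, where those of CCN1 and CCN2 were lower. The remaining calls, named after their values were seen, were AXL, a receptor tyrosine kinase, which rose by 1.03 (SE 0.22) at 0.63 µM for 24 h, and falls of CCDC80 (-1.63 at 1.25 µM and -1.82 at 48 h), DOCK5 (-0.78 at 1.25 µM) and ASAP1 (-0.65 at 48 h). All of these calls had a limma adjusted p between 5.59e-05 and 0.0416. AXL in untreated libraries of 24 h read 75.5, 37.14 and 80.44 TPM, replicate 2 being the low one. At 0.63 µM for 24 h it read 106.48, 128.01 and 144.22 TPM.

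**Figure D4:**
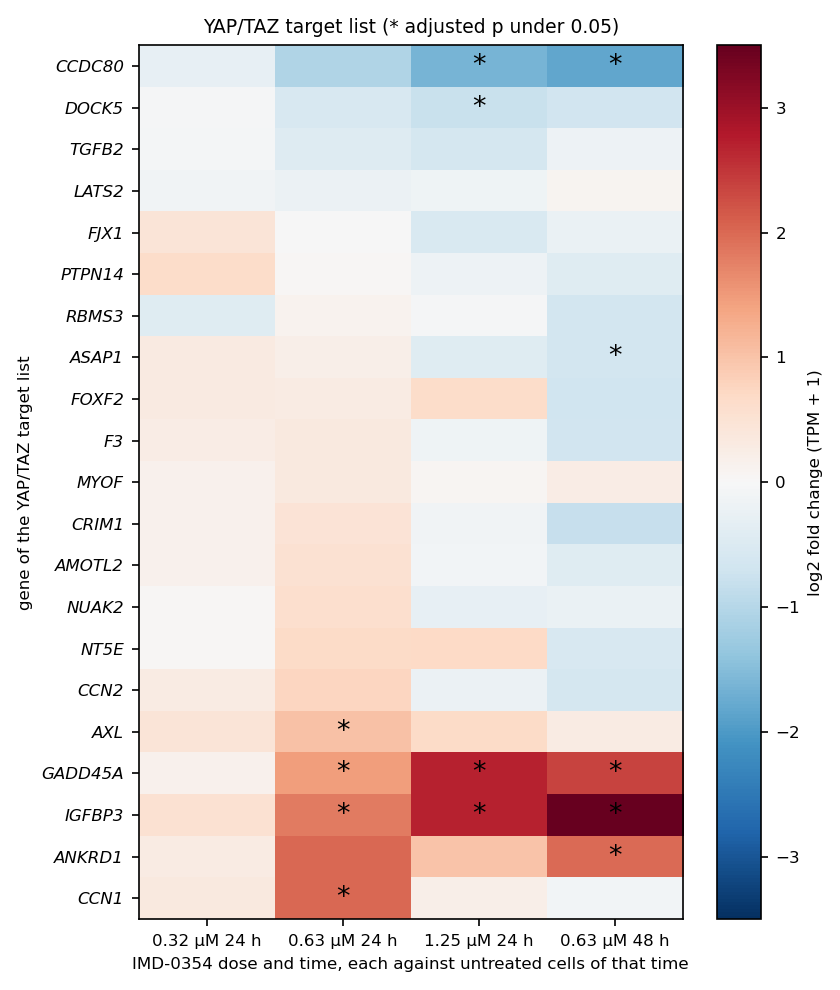
Log2 change of the 21 tested genes of the YAP and TAZ target signature (rows) in the 4 comparisons with untreated cells (columns), with colour for the change and an asterisk where limma called the gene. In the columns for 0.32 µM and for 0.63 µM at 24 h 16 of 21 changes are positive, with 0 and 4 called. At 48 h 6 of 21 are positive, IGFBP3 and GADD45A being the largest of them.

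Upstream of the coactivators, 22 of 25 Hippo kinases, scaffolds and regulators were tested. At 0.32 µM limma called none of them and none had an unadjusted p under 0.05, where 0.0268% of all genes were called and 6.11% had such a p. At 0.63 µM for 24 h and at 48 h it called none, where 2.18% and 7.63% of all genes were called. At 48 h 2 were called, both higher, with median-of-ratios scaling and with quantile normalization, which remove the shift of all genes. At 1.25 µM 1 was higher and 2 were lower, 13.6% of those tested, near the 11.3% called among all genes. FRMD6, a FERM domain protein placed upstream of the kinases, rose by 1.64 (SE 0.35, 34.6 against 10.5 TPM, limma adjusted p = 0.00655). STK3, the kinase that activates LATS proteins, fell by 1.07 on the log2 scale (11.9 against 25.5 TPM, limma adjusted p = 0.0442), and STRN, a scaffold of the phosphatase complex that opposes it, fell by 1.15 (6.70 against 15.9 TPM, limma adjusted p = 0.0294). The falls of STRN and STK3 were both lost, leaving 1 call, in a fit of the compared groups alone, without untreated replicate 2 or without 1.25 µM replicate 1 or 2.

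SRF and its MRTF coactivators are known to share targets with YAP and TAZ. Of 21 tested SRF and actin cytoskeleton genes 1 was called at 0.63 µM for 24 h, higher, while 2 were higher and 6 lower at 1.25 µM and 4 were lower at 48 h. Of all genes 2.18%, 11.3% and 7.63% were called in these comparisons. FLNA, an actin crosslinker, rose by 1.29 (SE 0.27) at 0.63 µM and by 1.37 at 1.25 µM, with untreated libraries of 367.71, 138.34 and 314.47 TPM, replicate 2 being the low one. CALD1, an actin-binding regulator, fell by 1.25 at 1.25 µM, to 43.65, 45.53 and 46.87 TPM. Its untreated libraries read 82.8, 172.38 and 91.38 TPM, replicate 2 being the high one. TAGLN2 fell by 1.14 at 48 h, and CNN3, a calponin, fell by 1.55 at 48 h. The FLNA call at 0.63 µM was lost without any 1 of the 0.63 µM libraries, a second gene was called without untreated replicate 3, and the 8 calls at 1.25 µM became 4 without 1.25 µM replicate 3. In fits of the compared groups alone none was called at 0.63 or 1.25 µM for 24 h.

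Of 11 tested immediate early genes 3 were higher at 0.63 µM for 24 h, 6 at 1.25 µM and 1 at 48 h, and none was lower, where 1.36%, 4.94% and 1.95% of all genes were higher. MYC rose by 1.61 at 0.63 µM and 1.99 at 1.25 µM (9.53 against 1.76 TPM), FOSB by 1.93 and the phosphatase DUSP1 by 1.87 at 1.25 µM, and ATF3, a stress-induced transcription factor, by 1.95 at 48 h. The count of 3 at 0.63 µM became 1 without untreated replicate 2 or without 0.63 µM replicate 2 or 3. In fits of the compared groups alone the counts became 0, 2 and 2, and at 48 h 3 were called with median-of-ratios scaling and 3 with quantile normalization.

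The genes whose 6 group means ran closest to each called member were sought among 7913 genes with a symbol and a mean of at least 5 TPM, by the root-mean-square difference of the centred means on the log2 scale. For WWTR1 they were TAF5 (0.04), TMEM160 (0.06) and PRDX1 (0.06), and for TEAD1 they were MRPL19 (0.05), HSPA4 (0.06) and LEO1 (0.06). For ANKRD1 they were DDIT4 (0.19), C3orf33 (0.24) and SLC44A2 (0.27). For CCN1 they were SNORA72 (0.22), KLC2-AS2 (0.30) and RPIA (0.34). WWTR1 and TEAD1 thus had closer neighbours than ANKRD1 and CCN1, and no gene came within 0.2 of CCN1. The difference is not scaled to the size of a gene's change. The larger distances of ANKRD1 and CCN1, which changed more, therefore do not mark their patterns as unusual.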

How the data were processed

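The 18 libraries were made from total RNA with a Lexogen QuantSeq FWD 3' end kit, per the labels' protocols. Per the submitters' processing notes the tools included STAR 2.7, cutadapt 1.18, DESeq2 and RSEM 1.3.1, with roles and genome build not given in the sources used here. In 1 table the authors deposited TPM per Ensembl gene, without counts, so no count test was made and the depth per library is unknown. TPM divides by transcript length, whereas 3' libraries give about 1 tag per transcript, so levels of different genes are not directly comparable.

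From the deposited TPM, log2(TPM + 1) was computed for the 14936 genes that reached 1 TPM in 3 or more libraries. The 6 group means were fitted together over the 18 libraries with limma 3.58.1 in R 4.3.3 (12 residual and 4.16 prior degrees of freedom, mean-variance trend), with two-sided tests and Benjamini-Hochberg adjustment over all genes. Coordinates are from GENCODE release 29 by identifier. Whether counting used the strand is not stated. YAP1, WWTR1, TEAD1, CCN2, AMOTL1 and LATS2 overlap genes annotated on the other strand, while WWTR1, TEAD1 and LATS2 overlap 1 gene each, and AMOTL2 overlaps 2, on their own strand.

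The members and gene lists were chosen with earlier results of these data known. All 9 members were named, with up to 4 called genes of each list by largest change (where fewer than 2 were called, the 2 with the largest change), and for each member called against untreated cells the 3 genes of closest group means. Alternatives were pseudocounts of 0.1 and 5 TPM, a minimum of 5 TPM or none, quantile normalization, median-of-ratios scaling, rescaling without 4 abundant chromosome 21 transcripts, only the compared groups, the replicate number as a block, and leaving out each library or untreated 24 h replicates 2 and 3 together. The procedure was tested on simulated data. Figures were drawn with matplotlib 3.10.9.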

Additional observations from a re-analysis of the deposited data

How the results depend on the processing

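None of the 81 member results reversed a call in any alternative run, and 8 changed a call in at least 1. Only a called result could reverse, and most of the 81 were not called in the first place. Of the member calls reported above, only that of WWTR1 at 0.63 µM for 48 h was kept in every alternative. The number of members called at 0.63 µM for 24 h (1) became 2 with the replicate block, where ANKRD1 was called too (adjusted p = 0.0404, in a range of 0.0404 to 0.274), and 0 without untreated 24 h replicates 2 and 3. At 1.25 µM (2) it became 1 with quantile normalization, 0 with only the compared groups and 0 without those 2 libraries. At 48 h (2) it became 1 without a filter. For the step from 0.63 to 1.25 µM (1) it became 0 without a filter and 0 with quantile normalization, and for the dose trend (2) it became 1 with quantile normalization, 1 with only the compared groups and 1 without the 2 libraries. Leaving out each library gave 0 to 1 members at 0.63 µM for 24 h, 0 to 2 at 1.25 µM, 1 to 2 at 48 h, 0 to 1 for that step and 1 to 2 for the trend. Libraries with the same replicate number were at most weakly alike. Over 45 such pairs the correlation of deviations ran from -0.09 to 0.12 (median 0.03), and 1 exceeded 0.1. The labels do not state what a shared number means, so the block rests on the number alone. Median-of-ratios scaling removed the shift of all genes at 48 h, and the share of calls that were higher went from 25.5% to 49.2% there (47.5% with quantile normalization), while WWTR1 changed by -0.86 and ANKRD1 by 2.19. At 0.63 µM for 24 h rescaling without the chromosome 21 transcripts moved that share from 62.3% to 44.5%, with CCN1 at 1.96. With 3 libraries a group and unknown depth, small changes of low genes such as LATS2 were not detectable.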
